A study of Drosophila melanogaster with 8 samples.

Results

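The comparison described here sets a Drosophila melanogaster tumour in which the Jun N-terminal kinase (JNK) was blocked against the advanced tumour of the same 2 oncogenic changes. It used 2 of the 8 libraries of the series, 1 for each side, chosen by their column labels in the count table: RasV12 scrib BskDN, taken 6 days after egg laying, and the late RasV12 scrib tumour, taken at 11 days. Both came from dissected eye-antennal imaginal discs, the larval epithelia that give rise to the adult eye, antenna and head cuticle, and the labels place both at the wandering stage of the third larval instar, which genotypes reached at different ages. The RasV12 scrib BskDN larvae are written as y,w,eyflp over UAS-BSK[DN], then act>y+>Gal4 with UAS-GFP over UAS-Ras[V12], then FRT82 e with tub-GAL80 over an FRT82 e chromosome with a scrib[2 allele, where the label text ends. The late tumour larvae carried the same elements without UAS-BSK[DN]. In both genotypes, FLP recombinase, driven in the developing eye by eyflp, makes clones in the disc that lose the repressor Gal80, so that Gal4 drives GFP and the transgenes there, and the same clones become homozygous for the scrib allele. The discs therefore mix mutant clones with other cells, and a library stands for the pooled discs of 50 to 60 larvae raised at 25 °C. Genotype and age differ together between the 2 libraries, and neither side had a replicate.

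RasV12 keeps the small GTPase Ras85D permanently switched on. Scribble (scrib) keeps epithelial cells polarized, and its loss together with active Ras turns disc clones into invasive, overgrown tissue that delays metamorphosis. In this model JNK, encoded by basket (bsk) in the fly, is activated by the loss of polarity and acts through the AP-1 factors Fos (kay) and Jun (Jra). Known AP-1 outputs include matrix metalloproteases, the cytokines of the JAK/STAT pathway and the relaxin-like hormone Ilp8, which holds back the steroid ecdysone. BskDN is a dominant-negative form of the kinase.

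The table assigned 21027972 counts to genes in RasV12 scrib BskDN and 19835809 in the late tumour. Levels are normalized CPM, that is, gene counts scaled for library size and composition, so that levels of different genes are not corrected for gene length. Of the 15348 genes listed, 10029 with at least 1 CPM in at least 1 of the 8 libraries were considered. Calls required a difference of 4-fold or more on a log2 scale with a prior count of 2, and 5 CPM or more in the higher library. Intervals after folds are exact 95% intervals for counting error alone. With 1 library a side no p-value is given, and no difference below could be set against the spread between replicates. The targeted genes went with the labels. With BskDN, bsk (FBgn0000229, 2L:10247502-10250501) had 1891 CPM (1872 to 1909.7), against 96.0 CPM in the late tumour (91.7 to 100.4), which is 19.7-fold higher (18.8 to 20.6). Ras85D (FBgn0003205, 3R:9510561-9513067) was at 426 CPM in RasV12 scrib BskDN and 1181 CPM in the late tumour, both above the 253 CPM of the control discs, and 2.77-fold lower with BskDN (2.70 to 2.84). The transgene and the gene itself cannot be told apart in these counts. Genes of the labelled tissue were present on both sides: the eye gene ey was at 82.5 CPM in RasV12 scrib BskDN and 93.0 CPM in the late tumour, and hth, of the antenna and head, at 760.3 CPM in RasV12 scrib BskDN and 355 CPM in the late tumour. The scrib gene was at 419.6 CPM in RasV12 scrib BskDN and 363 CPM in the late tumour, which does not check its label, since loss of function need not lower its RNA.

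Blocking JNK in the tumour genotype went with a large set of lower genes and a smaller set of higher ones. In RasV12 scrib BskDN, 160 genes were called higher (1.6% of those considered) and 371 lower (3.7%), or 5.29% in either direction, and 7666 genes (76.4%) lay within 2-fold. The lower genes held 0.456% of the assigned counts in RasV12 scrib BskDN and 4.21% in the late tumour, and the higher genes 2.19% in RasV12 scrib BskDN and 0.296% in the late tumour. Hormones and cytokines known as JNK outputs, the matrix gene Tig, lactate dehydrogenase, growth factors, glutathione transferases, and gut-type mucins were among the lower genes. Ecdysone-response genes, apical matrix genes, bristle genes and odorant-binding protein genes were among the higher ones. The growth factor, apical matrix and bristle lists were chosen after values were seen. The lower gene with the highest level was Dgp-1, named after its values were seen, at 103 CPM in RasV12 scrib BskDN and 4354 CPM in the late tumour. Of the lower genes 15 had 0 counts in RasV12 scrib BskDN, and of the higher genes 2 had 0 counts in the late tumour. In bulk samples such as these, fewer cells of a type and less RNA per cell cannot be told apart.

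**Figure D1:**
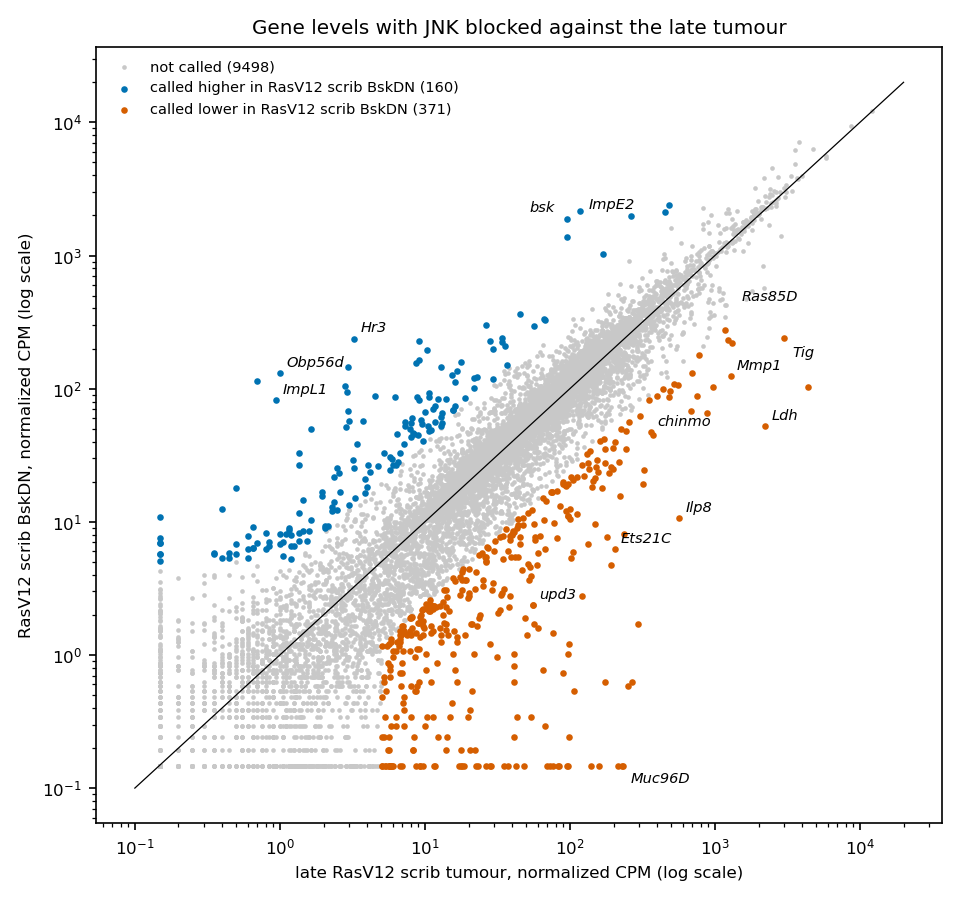
Normalized CPM of the 10029 considered genes in RasV12 scrib BskDN (vertical, log scale) against the late tumour (horizontal, log scale), with levels under 3 counts drawn at 3 counts and the line of equal levels in black. The 160 genes called higher (blue) and the 371 called lower (orange) lie off the line, with Hr3 and ImpL1 far above it and Ilp8, Ldh and Muc96D far below it.

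Of the genes of the JNK cascade itself only bsk was called, while many of the known JNK outputs were lower. Among the 13 considered genes of the cascade, 2 were at least 2-fold higher in RasV12 scrib BskDN and 2 at least 2-fold lower, against 7.16% of all considered genes higher and 16.4% lower by the same measure, and 1, bsk, was called. Among the 20 genes of the AP-1 output list 11 were at least 2-fold lower and 1 higher, 6 were called lower, and the median log2 fold was -1.25, against 0.02 over all considered genes. The upstream kinase gene hep was at 125 CPM in RasV12 scrib BskDN and 127 CPM in the late tumour, and the TNF ligand gene egr at 32.0 CPM in RasV12 scrib BskDN and 47.7 CPM in the late tumour, both within 2-fold. The Fos gene kay was 2.69-fold lower (2.57 to 2.82), at 121 CPM in RasV12 scrib BskDN and 326 CPM in the late tumour, and the Jun gene Jra was at 82.8 CPM in RasV12 scrib BskDN and 104 CPM in the late tumour. Of the receptors, the TNF receptor gene wgn was 2.82-fold higher (2.47 to 3.22), while grnd was at 102 CPM in RasV12 scrib BskDN and 119 CPM in the late tumour. The JNK phosphatase gene puc, a feedback inhibitor and common reporter of the pathway, was at 49.6 CPM in RasV12 scrib BskDN and 166 CPM in the late tumour, or 3.35-fold lower (3.12 to 3.60). It was not called. In scrib BskDN, which also carries the block, puc was at 116 CPM and kay at 215 CPM. Control had 46.4 CPM of puc and 125 CPM of kay.

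Ilp8 (FBgn0036690, 3L:17029812-17032080) was at 10.6 CPM in RasV12 scrib BskDN (9.25 to 12.1) and 566 CPM in the late tumour (556 to 576), 53.4-fold lower (46.7 to 61.3). In the other libraries it was at 364 CPM in the early RasV12 scrib tumour (7 days), 3.36 CPM in scrib BskDN (6 days), 0.795 CPM in BskDN alone (11 days), 16.8 CPM in RasV12 (5 days), 110.1 CPM in scrib wing discs (6 days) and 2.09 CPM in control (5 days). The libraries with scrib loss and no BskDN were the high ones, and RasV12 scrib BskDN lay below RasV12 alone and above control. Ets21C (FBgn0005660, 2L:544925-552923), an Ets-family transcription factor gene, was at 6.20 CPM in RasV12 scrib BskDN and 204 CPM in the late tumour, 32.9-fold lower (27.6 to 39.5), while the early tumour had 154 CPM and control discs 1.83 CPM. The matrix metalloprotease gene Mmp1 (FBgn0035049, 2R:24671294-24688184), whose product cuts basement membrane, was at 125 CPM in RasV12 scrib BskDN and 1282 CPM in the late tumour, 10.3-fold lower (9.86 to 10.7). The early tumour had 1309 CPM of Mmp1 and control 68.6 CPM, so that the early and late tumours were close together and RasV12 scrib BskDN lay between them and control, 125 against 68.6 CPM. The serine-protease-like gene scaf was 5.10-fold lower (4.86 to 5.36), at 95.7 CPM in RasV12 scrib BskDN and 488 CPM in the late tumour. The oxidase maturation gene mol was 10.8-fold lower (8.78 to 13.4), at 4.79 CPM in RasV12 scrib BskDN and 51.8 CPM in the late tumour, and the nuclear receptor gene ftz-f1 was 5.03-fold lower (4.51 to 5.62), at 19.2 CPM in RasV12 scrib BskDN and 96.4 CPM in the late tumour. Unlike Ilp8, Ets21C and Mmp1, these genes and scaf lay below control in RasV12 scrib BskDN. Control had 142.3 CPM of scaf, 21.3 CPM of mol and 37.9 CPM of ftz-f1.

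Other outputs were lower by less than the call required. Pvf1, a growth factor related to PDGF and VEGF, was at 20.1 CPM in RasV12 scrib BskDN and 75.9 CPM in the late tumour (3.77-fold lower, 3.38 to 4.22). The stress factor gene Atf3 was at 23.7 CPM in RasV12 scrib BskDN and 71.3 CPM in the late tumour, and the filamin gene cher, which crosslinks actin, at 422 CPM in RasV12 scrib BskDN and 1189 CPM in the late tumour. The proneural gene ac was the 1 member on the list that was at least 2-fold higher, at 22.6 CPM in RasV12 scrib BskDN and 6.68 CPM in the late tumour. Mmp2, the second metalloprotease gene of the fly, was not lower: it had 439 CPM in RasV12 scrib BskDN and 299 CPM in the late tumour. Timp, which encodes an inhibitor of both proteases, had 10.4 CPM in RasV12 scrib BskDN and 18.2 CPM in the late tumour. In the early tumour library, which enters neither side of the comparison, the levels of all 6 called outputs were nearer to the late tumour than to RasV12 scrib BskDN.

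Each of the 3 JAK/STAT cytokine genes was called lower with JNK blocked. The 5 genes at least 2-fold lower among the 11 considered in the JAK/STAT list were all called, none was at least 2-fold higher, and the list median was -0.56. The cytokine gene upd1 (FBgn0004956, X:18305354-18309291) was at 7.85 CPM in RasV12 scrib BskDN and 62.7 CPM in the late tumour, 7.99-fold lower (6.78 to 9.46). Its neighbour upd2 was at 2.37 CPM in RasV12 scrib BskDN and 55.3 CPM in the late tumour, 23.3-fold lower (17.5 to 31.7), and upd3 at 2.37 CPM in RasV12 scrib BskDN and 55.6 CPM in the late tumour, 23.4-fold lower (17.6 to 31.9). All 3 lie within a single stretch of the X chromosome. In the early tumour upd1 had 72.7, upd2 59.8 and upd3 43.4 CPM, and in control discs 4.51, 0.913 and 0.967 CPM, so that RasV12 scrib BskDN was above control and far under either tumour library. Socs36E, a feedback inhibitor that the pathway switches on, was 4.27-fold lower (4.04 to 4.50), at 81.9 CPM in RasV12 scrib BskDN and 349.6 CPM in the late tumour. The gene chinmo, a transcription factor downstream of the pathway known for holding cells in a young state, was 7.67-fold lower (7.17 to 8.21), at 47.1 CPM in RasV12 scrib BskDN and 361 CPM in the late tumour. The receptor gene dome, the kinase gene hop and the factor gene Stat92E were not called. Their levels were 178 CPM in RasV12 scrib BskDN and 243 CPM in the late tumour for dome, 104 CPM in RasV12 scrib BskDN and 87.0 CPM in the late tumour for hop, and 229 CPM in RasV12 scrib BskDN and 249 CPM in the late tumour for Stat92E. The receptor-like gene et was at 22.4 CPM in RasV12 scrib BskDN and 14.3 CPM in the late tumour.

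**Figure D2:**
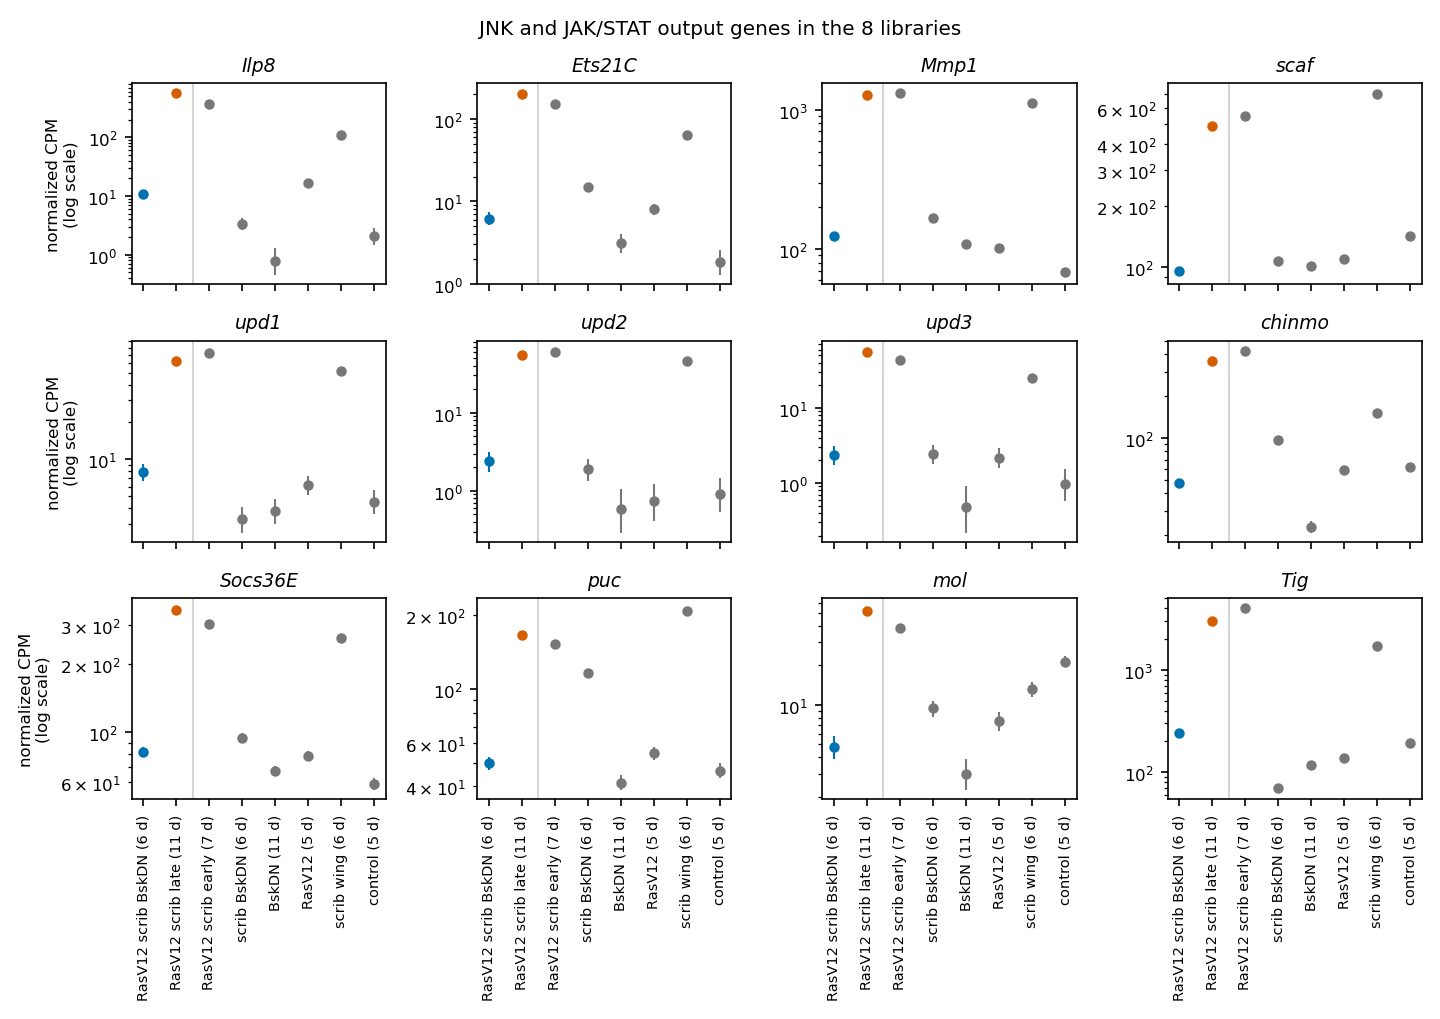
Normalized CPM (log scale) of 12 genes in each of the 8 libraries, with exact 95% Poisson intervals, RasV12 scrib BskDN in blue, the late tumour in orange and the other libraries in grey. For Ilp8, Ets21C, Mmp1, the upd genes and Socs36E, the late tumour, the early tumour and the scrib wing discs are the 3 high libraries, and RasV12 scrib BskDN lies with the rest.

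Secreted growth factors, a list chosen after values were seen, were mostly lower, which that choice may favour. Of 17 considered, 9 were at least 2-fold lower, 7 were called lower and 1, the neurotrophin gene NT1, higher, with a median of -1.32. The Activin-type ligand gene daw was at 7.75 CPM in RasV12 scrib BskDN and 181 CPM in the late tumour, 23.3-fold lower (19.9 to 27.5). The Toll-ligand family gene spz3 was at 19.3 CPM in RasV12 scrib BskDN and 319 CPM in the late tumour (16.5-fold lower), and its relative spz5 at 5.47 CPM in RasV12 scrib BskDN and 41.9 CPM in the late tumour. The fibroblast growth factor gene bnl, which guides tracheal branches, was at 25.8 CPM in RasV12 scrib BskDN and 193 CPM in the late tumour, 7.48-fold lower (6.83 to 8.20). The PDGF- and VEGF-like genes Pvf2 and Pvf3 were 4.96-fold and 4.19-fold lower. On the log2 scale the early tumour was closer to the late tumour in 5 of the 7 and closer to RasV12 scrib BskDN in 2. Among the 2 was bnl, at 35.9 CPM in the early tumour, whereas daw, at 47.5 CPM there, was closer to the late tumour.

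The growth pathways that also act in this tumour differed much less. Over all considered genes, 16.4% were at least 2-fold lower, 7.16% at least 2-fold higher and 5.29% called. These shares apply to each list below, and the lower counts of the Hippo and Ras/MAPK lists lay near the first. No gene was called among the 19 of the Hippo and Yorkie list, whose median was 0.14, and 3 were at least 2-fold lower: fj, which encodes a Golgi kinase that modifies the cadherin Fat, at 210.3 CPM in RasV12 scrib BskDN and 548 CPM in the late tumour, the EGFR ligand gene vn, at 23.9 CPM in RasV12 scrib BskDN and 52.6 CPM in the late tumour, and Myc, a growth regulator, at 236 CPM in RasV12 scrib BskDN and 484 CPM in the late tumour. The Yorkie targets Diap1, at 499 CPM in RasV12 scrib BskDN and 349 CPM in the late tumour, and ex, at 566 CPM in RasV12 scrib BskDN and 632 CPM in the late tumour, lay within 2-fold. In the Ras/MAPK list (21 genes, median 0.10) 3 were at least 2-fold lower and 1 higher. That 1 gene was called: ru, a protease that releases EGFR ligands, at 32.8 CPM in RasV12 scrib BskDN and 5.19 CPM in the late tumour, 6.33-fold higher (5.14 to 7.86). The feedback inhibitor gene sty, a reporter of the active pathway, was at 392 CPM in RasV12 scrib BskDN and 482 CPM in the late tumour, both above the 95.7 CPM of control, and aos, another inhibitor, at 129 CPM in RasV12 scrib BskDN and 165 CPM in the late tumour. In the lists for Dpp (11 genes) and Hedgehog (8 genes) no gene reached 2-fold. In the Wnt list 2 of 12 were at least 2-fold higher, Wnt6 at 71.5 CPM in RasV12 scrib BskDN and 30.1 CPM in the late tumour and the receptor gene fz at 131 CPM in RasV12 scrib BskDN and 63.5 CPM in the late tumour. None of the 15 polarity and adhesion genes and none of the 26 cell cycle genes reached 2-fold in either direction. The mitotic cyclin gene CycB, for instance, was at 289 CPM in RasV12 scrib BskDN and 207 CPM in the late tumour, and the phosphatase gene stg at 207 CPM in RasV12 scrib BskDN and 202 CPM in the late tumour.

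Among matrix genes Tig stood apart. The gene Tig (FBgn0011722, 2L:6415179-6423310), which encodes tiggrin, an integrin-binding matrix protein, was at 240.2 CPM in RasV12 scrib BskDN (234 to 247) and 2977 CPM in the late tumour (2953 to 3001), 12.4-fold lower (12.04 to 12.8). It was at 4051 CPM in the early tumour, 1699 CPM in the scrib wing discs and 193 CPM in control. Tig was the called gene among 13 considered matrix and basement membrane genes, whose median was 0.37. The collagen IV genes Col4a1, at 347 CPM in RasV12 scrib BskDN and 228 CPM in the late tumour, and vkg, at 216 CPM in RasV12 scrib BskDN and 161 CPM in the late tumour, leaned the other way within 2-fold, and Glt, a basement membrane gene, was 2.76-fold higher (2.67 to 2.86). Of the 17 integrin and cytoskeleton genes 4 were at least 2-fold lower and none was called. They were cher, the talin gene rhea (358 CPM in RasV12 scrib BskDN and 988 CPM in the late tumour), the formin gene dia (80.9 CPM in RasV12 scrib BskDN and 224 CPM in the late tumour) and the integrin subunit gene Itgbn (1.55 CPM in RasV12 scrib BskDN and 5.04 CPM in the late tumour).

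On the higher side, the ecdysone response held 7 called genes, and its list was divided. Ecdysone is the steroid whose pulses start moulting and metamorphosis, and the ImpE and ImpL genes are early and late genes that it induces in discs. Of the 19 considered genes 7 were at least 2-fold higher, and all 7 were called. A further 3 were at least 2-fold lower with 1 called, and the rest lay within 2-fold, which left the median at 0.29. The nuclear receptor gene Hr3 was at 238 CPM in RasV12 scrib BskDN (231 to 245) and 3.24 CPM in the late tumour (2.50 to 4.13), 73.4-fold higher (57.5 to 95.2). It was at 0.619 CPM in the early tumour, 234 CPM in scrib BskDN, 234 CPM in BskDN, 30.9 CPM in RasV12, 14.8 CPM in the scrib wing discs and 91.5 CPM in control. The 3 libraries with BskDN were thus nearly level and highest, and the tumour libraries lowest. ImpL1 (FBgn0001256, 3L:13382765-13383999) was at 81.9 CPM in RasV12 scrib BskDN and 0.948 CPM in the late tumour, 86.4-fold higher (55.2 to 144). ImpE1 (FBgn0001253, 3L:8372405-8391171) was at 1388 CPM in RasV12 scrib BskDN and 96.0 CPM in the late tumour, ImpE2 (FBgn0001254, 3L:3510974-3512681) at 2151 CPM in RasV12 scrib BskDN and 118 CPM in the late tumour, and ImpE3 at 194 CPM in RasV12 scrib BskDN and 10.3 CPM in the late tumour, with folds of 14.5, 18.2 and 18.9 over the late tumour. The nuclear receptor gene Eip78C was 13.9-fold higher (11.6 to 16.9) and the transporter gene E23 4.98-fold higher (4.25 to 5.88). Blimp-1, a repressor gene induced by ecdysone, was outside the list and among the 15 largest folds, at 105 CPM in RasV12 scrib BskDN and 2.79 CPM in the late tumour, 37.5-fold higher (28.8 to 49.8).

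The hormone receptor genes EcR and usp and the early genes Eip74EF and Eip75B lay within 2-fold, unlike the ImpE genes and Eip78C. The ecdysone receptor gene EcR was at 105 CPM in RasV12 scrib BskDN and 171 CPM in the late tumour, its partner usp at 67.9 CPM in RasV12 scrib BskDN and 68.2 CPM in the late tumour, Eip74EF at 99.6 CPM in RasV12 scrib BskDN and 81.6 CPM in the late tumour and Eip75B at 249 CPM in RasV12 scrib BskDN and 200.3 CPM in the late tumour. The competence factor gene ftz-f1, also on the AP-1 output list, was the called lower gene, as given above. Cyp18a1, which inactivates ecdysone, was at 15.1 CPM in RasV12 scrib BskDN and 60.3 CPM in the late tumour, 3.99-fold lower (3.52 to 4.53), close to the call without meeting it. ImpL2, which encodes an insulin-binding protein, was at 569 CPM in RasV12 scrib BskDN and 2186 CPM in the late tumour, 3.84-fold lower (3.76 to 3.92). In the early tumour, at 7 days, all 7 higher genes had levels nearer to the late tumour, and BskDN discs labelled 11 days had 1129.8 CPM of ImpE1 and 86.9 CPM of ImpL1. Control discs had 460 CPM of ImpE1 and 26.2 CPM of ImpL1. For ImpE2, control had 1926 CPM and RasV12 had 2060 CPM, close to the 2151 CPM of RasV12 scrib BskDN. Of the 7 glue genes of the salivary gland, also under ecdysone control, 4 had levels at least 2-fold higher, all of them low, and 1 was lower, with a median of 2.45. Sgs3, for instance, had 60 counts in RasV12 scrib BskDN and 3 in the late tumour. The lower gene, Sgs4, was called, at 2.28 CPM in RasV12 scrib BskDN and 13.9 CPM in the late tumour. Their levels summed to 12.6 CPM in RasV12 scrib BskDN and 15.01 CPM in the late tumour, most of the late sum being Sgs4. In scrib BskDN the glue sum reached 939 CPM, and in RasV12 it was 1537 CPM. The part of salivary gland tissue was not tested.

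**Figure D3:**
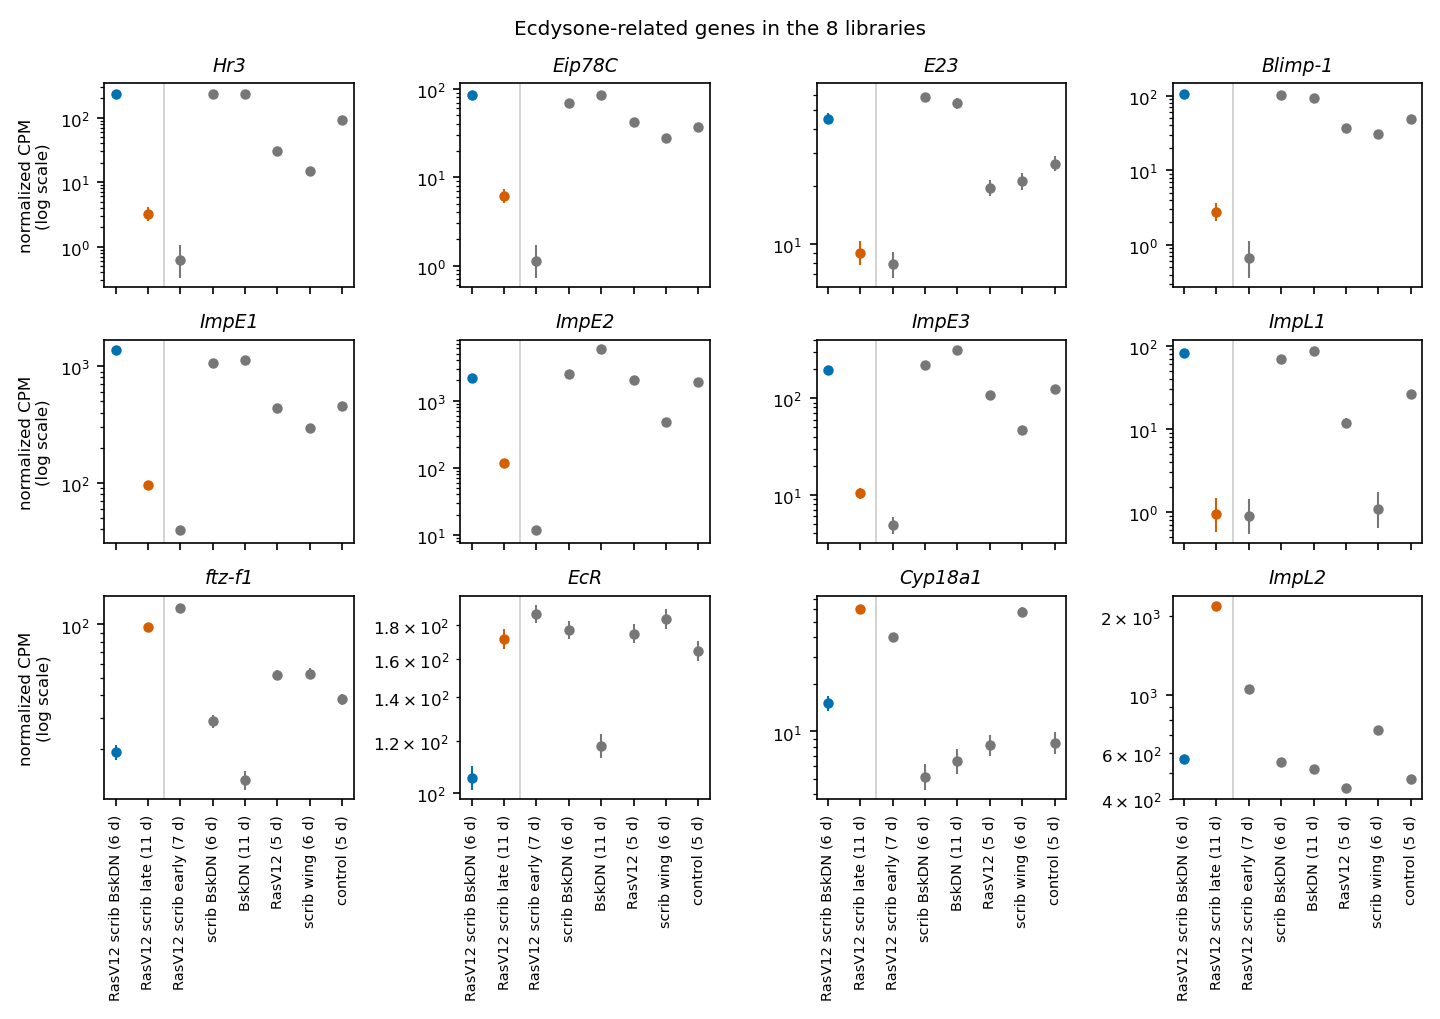
Normalized CPM (log scale) of 12 ecdysone-related genes in each of the 8 libraries, with exact 95% Poisson intervals, colours as RasV12 scrib BskDN blue, late tumour orange and others grey. Hr3, Eip78C, Blimp-1 and the Imp genes other than ImpL2 are low in the late and early tumours and high in the 3 libraries with BskDN. RasV12 and control lie between these, for ImpE2 close to RasV12 scrib BskDN. In contrast, ftz-f1, Cyp18a1 and ImpL2 show high values in the tumours.

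Genes of apical matrix and bristles, both lists chosen after values were seen, were mostly higher, which that choice may favour. ZP-domain proteins anchor epithelial cells to the apical matrix during disc eversion and cuticle formation. Of 11 considered, 7 were at least 2-fold higher, 5 were called higher and 1 lower. The gene neo was at 224 CPM in RasV12 scrib BskDN and 34.3 CPM in the late tumour (6.5-fold higher), nyo at 87.3 CPM in RasV12 scrib BskDN and 10.7 CPM in the late tumour, mey at 56.0 CPM in RasV12 scrib BskDN and 7.28 CPM in the late tumour, m at 18.0 CPM in RasV12 scrib BskDN and 0.499 CPM in the late tumour and dy at 9.20 CPM in RasV12 scrib BskDN and 0.648 CPM in the late tumour. The lower member was dumpy (dpy), which encodes a very large matrix protein, at 221 CPM in RasV12 scrib BskDN and 1306 CPM in the late tumour, 5.92-fold lower (5.74 to 6.11). Of 12 bristle and proneural genes 9 were 2-fold or more higher and none was 2-fold lower, and 5 were called. They were the protease gene Sb (93.6 CPM in RasV12 scrib BskDN and 2.89 CPM in the late tumour, 32.4-fold higher), the proneural gene sc (45.4 CPM in RasV12 scrib BskDN and 8.38 CPM in the late tumour), the GATA factor gene pnr (85.6 CPM in RasV12 scrib BskDN and 19.0 CPM in the late tumour), the homeobox gene unc-4 (27.9 CPM in RasV12 scrib BskDN and 6.53 CPM in the late tumour) and jv (9.25 CPM in RasV12 scrib BskDN and 2.05 CPM in the late tumour). Cuticle protein genes were split. Of 72 considered of 130 listed, 25 were at least 2-fold higher and 17 lower, with 6 called higher, such as Cpr65Ec at 12.4 CPM in RasV12 scrib BskDN and 0.399 CPM in the late tumour, and 3 called lower, such as Cpr47Eb at 1.02 CPM in RasV12 scrib BskDN and 41.3 CPM in the late tumour. The chitinase gene Cht10 was 7.43-fold higher (7.22 to 7.65), at 1964 CPM in RasV12 scrib BskDN and 264 CPM in the late tumour.

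Part of the patterning genes of the eye and antenna were higher, most of them without reaching the call. None of the 13 retinal determination genes was called, 5 were 2-fold or more higher and none was 2-fold lower (median 0.80). The eye specification gene eya was at 189 CPM in RasV12 scrib BskDN and 83.9 CPM in the late tumour (2.25-fold higher, 2.12 to 2.38), against 250.4 CPM in control. Of 22 photoreceptor genes considered, 8 were at least 2-fold higher and 2 lower, with 2 called higher. The proneural gene ato, which founds the photoreceptor clusters, was at 23.6 CPM in RasV12 scrib BskDN and 4.19 CPM in the late tumour, 5.64-fold higher (4.47 to 7.20), and had 11.7 CPM in the early tumour and, in control, 56.1 CPM. The zinc-finger factor gene gl, needed for photoreceptor fate, was 3.57-fold higher (3.26 to 3.91), at 106 CPM in RasV12 scrib BskDN and 29.8 CPM in the late tumour. The opsin gene Rh6 had 144 counts in RasV12 scrib BskDN (6.97 CPM) and 2 in the late tumour, a ratio of 69.9 (19.0 to 583). Its level followed neither eye tissue nor BskDN. It was at 14.9 CPM in control, 14.0 CPM in the scrib wing discs and 4.14 CPM in the early tumour. BskDN had 3.34 CPM of it, RasV12 1.29 CPM and scrib BskDN 0.521 CPM. The 2 lower genes were pros, at 163 CPM in RasV12 scrib BskDN and 601 CPM in the late tumour, and fne, at 62.3 CPM in RasV12 scrib BskDN and 152 CPM in the late tumour, both also expressed in the central nervous system. Of 12 antenna and appendage genes 6 were 2-fold or more higher and none was 2-fold lower (median 1.02), with the homeobox genes al (66.3 CPM in RasV12 scrib BskDN and 10.1 CPM in the late tumour, 6.58-fold higher) and C15 (10.3 CPM in RasV12 scrib BskDN and 1.65 CPM in the late tumour) called. Antennal Lim1 was at 125 CPM in RasV12 scrib BskDN and 41.1 CPM in the late tumour (3.03-fold higher). In the Notch list (16 genes, median 0.48) 4 were at least 2-fold higher, among them the target E(spl)mdelta-HLH at 28.9 CPM in RasV12 scrib BskDN and 12.5 CPM in the late tumour. The odorant-binding protein gene Obp56d had the largest fold of the higher genes named by rule, 131-fold higher (84.4 to 214), at 130.2 CPM in RasV12 scrib BskDN and 0.998 CPM in the late tumour, with 216 CPM in control. Among 22 considered of its family 9 were at least 2-fold higher, none was 2-fold lower, and 3 were called: Obp56d, Obp99b (51.2 CPM in RasV12 scrib BskDN and 2.84 CPM in the late tumour) and Obp99a (101 CPM in RasV12 scrib BskDN and 21.9 CPM in the late tumour).

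Among metabolic genes, lactate dehydrogenase and part of the glycolysis list were lower, while most respiratory chain genes lay within 2-fold. Lactate dehydrogenase, Ldh (FBgn0001258, 3L:6259105-6262694), which turns pyruvate into lactate, was at 52.5 CPM in RasV12 scrib BskDN (49.4 to 55.7) and 2229 CPM in the late tumour (2209 to 2250.2), 42.5-fold lower (40.0 to 45.2). It was at 411 CPM in the early tumour, 63.0 CPM in scrib BskDN, 19.6 CPM in BskDN, 44.2 CPM in RasV12, 57.4 CPM in the scrib wing discs and 119 CPM in control. The late tumour was thus the highest library and RasV12 scrib BskDN lay under control. Of 13 glycolysis genes 7 were at least 2-fold lower and none 2-fold higher (median -1.11), with Ldh and the aldolase gene Ald1 called. Ald1 was at 276 CPM in RasV12 scrib BskDN and 1171 CPM in the late tumour, 4.24-fold lower (4.12 to 4.37), and Pfk, the committed step of glycolysis, at 134 CPM in RasV12 scrib BskDN and 458 CPM in the late tumour. Of 61 respiratory chain and ATP synthase genes 1 was at least 2-fold lower and 1 higher (median 0.32). Thor, a translation inhibitor held down by insulin signalling, was at 24.4 CPM in RasV12 scrib BskDN and 323 CPM in the late tumour, 13.2-fold lower (12.1 to 14.5), with 85.8 CPM in control.

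Many detoxification genes were lower too, while antioxidant genes were not of 1 direction. The NADPH oxidase gene Nox was at 23.2 CPM in RasV12 scrib BskDN and 185 CPM in the late tumour, 7.99-fold lower (7.26 to 8.81). Of 31 glutathione transferase genes considered, 17 were at least 2-fold lower and 4 higher, and 11 were called lower and none higher (median -1.33). GstE1 was at 23.7 CPM in RasV12 scrib BskDN and 157 CPM in the late tumour, 6.60-fold lower (6.00 to 7.27), and GstE6 at 5.96 CPM in RasV12 scrib BskDN and 106 CPM in the late tumour, 17.7-fold lower (14.8 to 21.4). GstD5 was at 0.0969 CPM in RasV12 scrib BskDN and 23.1 CPM in the late tumour, with 2 counts behind the first value, a ratio of 238 (65.6 to 1975). These enzymes lie in clusters of related copies, and reads shared between copies were not assigned, so that single members are uncertain. The family was not uniform: GstS1 was at 516 CPM in RasV12 scrib BskDN and 185 CPM in the late tumour and GstO3 at 151 CPM in RasV12 scrib BskDN and 52.4 CPM in the late tumour, both higher with BskDN. The antioxidant enzyme genes Cat, at 389.7 CPM in RasV12 scrib BskDN and 176 CPM in the late tumour, and Sod3, at 245 CPM in RasV12 scrib BskDN and 97.5 CPM in the late tumour, were at least 2-fold higher too. In the cytochrome P450 family, a list chosen after values were seen, 30 of 63 considered genes were at least 2-fold lower and 6 higher, with 7 called lower, among them Cyp6a20 at 0.630 CPM in RasV12 scrib BskDN and 41.2 CPM in the late tumour, and 1 called higher.

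Immune effectors were lower from low levels. Of 13 antimicrobial peptide genes considered of 20 listed, 11 were at least 2-fold lower, none was 2-fold higher, and 5 were called (median -4.46, or -4.27 with genes at 0 counts set to 3, and -2.40 when all 20 enter with no filter on low values). Their levels summed to 3.00 CPM in RasV12 scrib BskDN and 65.7 CPM in the late tumour, and to 3.14 CPM in the early tumour, against 83.1 CPM in control. DptA was at 0.194 CPM in RasV12 scrib BskDN (4 counts) and 20.5 CPM in the late tumour, 106-fold lower (40.9 to 389), with 24.5 CPM in control. The sums rest on a few genes, and members differed in how the late tumour stood to control: DptA and CecC were lower in the late tumour than in control (8.38 CPM of CecC in the late tumour and 27.7 CPM in control), and AttA was higher, at 5.59 CPM in the late tumour and 0.537 CPM in control. Of 21 Toll and Imd genes 10 were at least 2-fold lower and 1 higher (median -0.71), with 4 called lower. The Imd feedback gene pirk was at 0.969 CPM in RasV12 scrib BskDN and 31.7 CPM in the late tumour, 32.7-fold lower (21.0 to 53.9), and the recognition protein gene PGRP-SA at 3.92 CPM in RasV12 scrib BskDN and 54.1 CPM in the late tumour, 13.8-fold lower (11.0 to 17.5). PGRP-SA had 51.3 CPM in the early tumour and pirk 4.71 CPM.

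Some of the largest folds belonged to genes that were almost silent in every library but the late tumour. They encode mucins and chitin-binding peritrophins, proteins of the kind that line the gut and other apical surfaces. The mucin gene Muc96D (FBgn0051439, 3R:25397788-25400645) was at 0.145 CPM in RasV12 scrib BskDN (3 counts) and 232 CPM in the late tumour, a ratio of 1594 (545 to 7731), and between 0.0537 CPM (control) and 0.568 CPM (scrib BskDN) in the other 6 libraries. Peritrophin-15a was at 0.630 CPM in RasV12 scrib BskDN and 266 CPM in the late tumour, 423-fold lower (247 to 795), and its neighbour on 2L, Peritrophin-15b, at 0.0969 CPM in RasV12 scrib BskDN and 141 CPM in the late tumour, with 2 counts on the RasV12 scrib BskDN side. Muc26B had 1 count in RasV12 scrib BskDN and 1398 in the late tumour, and obst-J had 2 counts in RasV12 scrib BskDN and 858 in the late tumour. The chitin-binding gene obst-G had 0 counts in all libraries except the late tumour, at 11.7 CPM, at least 80.7-fold lower in RasV12 scrib BskDN when its 0 counts are set to 3. Of 31 considered genes of the mucin and chitin list 20 were at least 2-fold lower and 2 higher, and 12 were called lower and 1, Cht10, higher (median -2.31). Several called members differed from the silent group. The mucin gene Muc68Ca, among the 15 largest lower folds, was at 0.775 CPM in RasV12 scrib BskDN and 65.0 CPM in the late tumour, but also at 73.0 CPM in the scrib wing discs, 14.7 CPM in RasV12 and 180.4 CPM in control, so that its level was higher in control than in the late tumour. The chitin-binding gene obst-E was at 10.5 CPM in RasV12 scrib BskDN and 99.6 CPM in the late tumour, with 50.2 CPM in the early tumour and, in control, 77.6 CPM. The chitinase-like gene Cht6 was at 232 CPM in RasV12 scrib BskDN and 1222 CPM in the late tumour, and the early tumour had 966 CPM. Among the 12 called lower genes 3 were closer to the late tumour in the early tumour library and 9 closer to RasV12 scrib BskDN.

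Cell type markers were counted beside this group. Of 27 midgut genes, a list chosen after values were seen, 19 stayed under 1 CPM in all 8 libraries. Of the 8 considered 3 were at least 2-fold lower and none was called, and their levels summed to 429 CPM in RasV12 scrib BskDN and 540.2 CPM in the late tumour. The gut gene mex1 was at 0.194 CPM in RasV12 scrib BskDN and 2.10 CPM in the late tumour. Of 10 neuron markers 7 were at least 2-fold lower and none 2-fold higher, with a summed level of 443 CPM in RasV12 scrib BskDN and 848 CPM in the late tumour, against 189.7 to 734 CPM in the other 6 libraries. Gad1, an enzyme gene of inhibitory neurons, was called, at 2.76 CPM in RasV12 scrib BskDN and 20.003 CPM in the late tumour, 7.25-fold lower (5.48 to 9.74), and the transporter gene VGlut was at 13.9 CPM in RasV12 scrib BskDN and 40.9 CPM in the late tumour. Of 26 considered neuropeptide precursor genes, also chosen after values were seen, 18 were at least 2-fold lower and 7 were called, such as Orcokinin at 0.436 CPM in RasV12 scrib BskDN and 15.3 CPM in the late tumour and Proc at 2.08 CPM in RasV12 scrib BskDN and 32.1 CPM in the late tumour. The Hox genes abd-A, at 0.0969 CPM in RasV12 scrib BskDN and 5.99 CPM in the late tumour (2 counts in RasV12 scrib BskDN), and Abd-B, at 0.0484 CPM in RasV12 scrib BskDN and 2.59 CPM in the late tumour (1 count), act in the abdomen and its nerve cord and were near silent in RasV12 scrib BskDN. In scrib BskDN, which also carries the JNK block, abd-A was at 8.81 CPM and Abd-B at 6.11 CPM, both above the late tumour. Gad1 was at 20.7 CPM and VGlut at 31.0 CPM in scrib BskDN, so that these RNAs were not particular to the late tumour. In the remaining libraries abd-A and Abd-B stayed under 1 CPM. The part of gut or nervous tissue in the mucin result was not tested. Without the genes of the mucin, neuron, midgut and neuropeptide lists, 159 genes were called higher and 351 lower, an alternative chosen after seeing the data. It only takes the listed genes off the calls, so that it cannot show how much such tissue contributed.

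**Figure D4:**
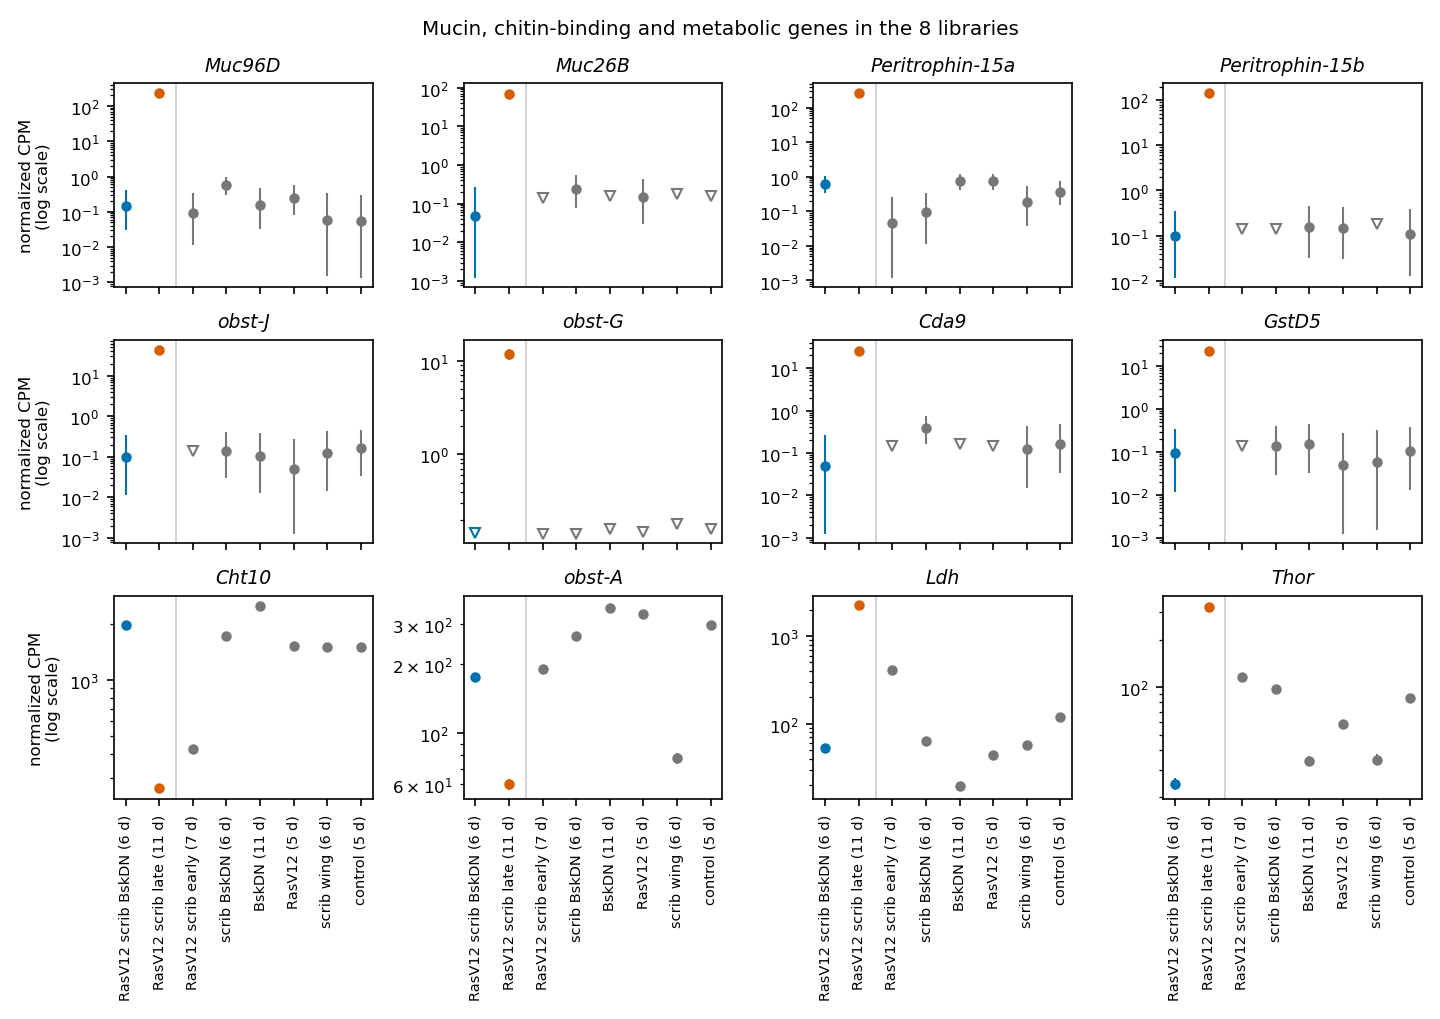
Normalized CPM (log scale) of 12 mucin, chitin-related, detoxification and metabolic genes in each of the 8 libraries, with exact 95% Poisson intervals and open triangles at the level of 3 counts where a library had 0. Muc96D, Muc26B, both peritrophins, obst-J, obst-G, Cda9 and GstD5 lie under 1 CPM in every library but the late tumour, while Ldh and Thor are measurable in all 8.

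Markers of other tissues moved in both directions. Of 8 fat body markers considered, 6 were at least 2-fold higher and 1 lower, with Fbp1 (229 CPM in RasV12 scrib BskDN and 9.18 CPM in the late tumour, 25.0-fold higher), Fbp2, Lsp1alpha and Lsp1beta called higher and apolpp, a lipoprotein gene, called lower at 55.8 CPM in RasV12 scrib BskDN and 257 CPM in the late tumour. Their levels summed to 513 CPM in RasV12 scrib BskDN and 341 CPM in the late tumour, and ranged from 82.9 CPM in the early tumour to 5559.9 CPM in BskDN over the other libraries. Of 11 hemocyte markers 3 were at least 2-fold higher and none was called, with a sum of 1397 CPM in RasV12 scrib BskDN and 893 CPM in the late tumour. Of 9 glia markers 3 were at least 2-fold lower and 1 higher, and the astrocyte gene alrm was called lower, at 9.83 CPM in RasV12 scrib BskDN and 77.4 CPM in the late tumour. Of 12 muscle markers 1 was at least 2-fold lower and none 2-fold higher. The part of fat body cells in the higher genes was not tested. Among 18 heat shock genes 3 were at least 2-fold higher, of which the small heat shock genes Hsp27 (2397 CPM in RasV12 scrib BskDN and 485 CPM in the late tumour, 4.94-fold higher) and Hsp67Ba (335 CPM in RasV12 scrib BskDN and 66.3 CPM in the late tumour) were called, and 6 Hsp70 copies were at least 2-fold lower, although reads cannot be assigned with certainty among copies this similar. Of 13 cell death genes 4 were at least 2-fold lower, among them grim, at 3.20 CPM in RasV12 scrib BskDN and 11.1 CPM in the late tumour, and p53, at 15.1 CPM in RasV12 scrib BskDN and 45.9 CPM in the late tumour, and none was called. Cytosolic ribosomal protein genes (82 considered) had a median of 0.04 and proteasome genes (35 considered) a median of 0.46. In the proteasome list the called genes were Prosalpha1, at 0.242 CPM in RasV12 scrib BskDN and 40.9 CPM in the late tumour, and its near-identical copy Prosalpha1R, at 5.76 CPM in RasV12 scrib BskDN and 0 counts in the late tumour, whose reads may be split between the copies and are uncertain.

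Dosage compensation RNAs differed in step with the transgene. The non-coding RNAs roX1 and roX2, which mark the X chromosome in males, were called lower. lncRNA:roX1 (FBgn0019661, X:3857230-3862697) was at 67.6 CPM in RasV12 scrib BskDN and 680.2 CPM in the late tumour, 10.1-fold lower (9.52 to 10.6), and lncRNA:roX2 at 4.31 CPM in RasV12 scrib BskDN and 47.1 CPM in the late tumour, 10.9-fold lower (8.78 to 13.7). For lncRNA:roX1 the 3 libraries with BskDN had 67.6, 60.1 and 120.4 CPM, and the 5 without it between 478 and 711 CPM. The sex factor gene dsx was called higher, at 61.4 CPM in RasV12 scrib BskDN and 13.0 CPM in the late tumour. It was at 57.9 CPM in RasV12 and 53.4 CPM in control, close to RasV12 scrib BskDN, and at 31.0 CPM in the early tumour. The low dsx level of the late tumour was thus not shared by all libraries without BskDN. The gene msl-2 was at 39.8 CPM in RasV12 scrib BskDN and 70.6 CPM in the late tumour. By the genotype labels eyflp and UAS-BSK[DN] stand opposite each other on the first chromosome pair, the X, and a larva with 2 X chromosomes is female. The labels give no sex for any library, so that sex and the JNK block cannot be told apart in these counts. Genes on the X had a median log2 fold of 0.02 (1578 considered), as on 2L (0.02) and 3R (0.03), and 1.27% of them were called higher and 3.74% lower.

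The 6 libraries outside the comparison place its genes by age and genotype. For each gene the log2 level in another library was nearer to RasV12 scrib BskDN or to the late tumour. BskDN alone is labelled 11 days, like the late tumour and unlike the 6 days of the other libraries with BskDN, and that age was not checked. It was nearer to RasV12 scrib BskDN for 95.4% of the 371 lower genes and 88.1% of the 160 higher genes, against 74.1% of all considered genes. The early tumour, at 7 days, was nearer to the late tumour for 88.1% of the higher genes and for 43.9% of the lower ones, against 51.4% of all considered genes. Within the lower genes, then, 163 were nearer to the late tumour in the early tumour, among them the called AP-1 outputs and the upd genes, and 208 were not, among them Muc96D and DptA. The members were chosen for the difference between the 2 libraries, so that these shares are given as a description.

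Comparisons that share no library with this one gave overlapping lists. In the early tumour over control, 101 genes were called higher (1.01% of those considered) and 437 lower (4.36%). Of the 371 genes lower with JNK blocked, 67 were among the 101, which is 18.1% of the first list and 66.3% of the second. A further 28 of the 371 were among the 437 lower ones, 7.55% of the first list and 6.41% of the second. None of the 160 higher genes was among the 101, and 88 were among the 437 lower ones, 55% of the first list and 20.1% of the second. In BskDN over control, 69 genes were called higher (0.688%) and 329 lower (3.28%). Of the 371 lower genes 60 were also lower there (16.2% of the first list, 18.2% of the second) and 8 higher. Of the 160 higher genes 9 were also higher there (5.62% and 13%) and 8 lower (5% and 2.43%). In BskDN at 11 days over scrib BskDN at 6 days, 131 genes were called higher (1.31%) and 271 lower (2.7%), and the 371 lower genes shared 57 with the lower list (15.4% and 21%) and 5 with the higher one. The 160 higher genes shared 28 with the higher list (17.5% and 21.4%) and 2 with the lower one. Both libraries of that pair carry BskDN, they differ in scrib as well as in labelled age (unchecked, as above), and the 11-day library is the one on top, whereas in RasV12 scrib BskDN over the late tumour it is the 6-day one.

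**Figure D5:**
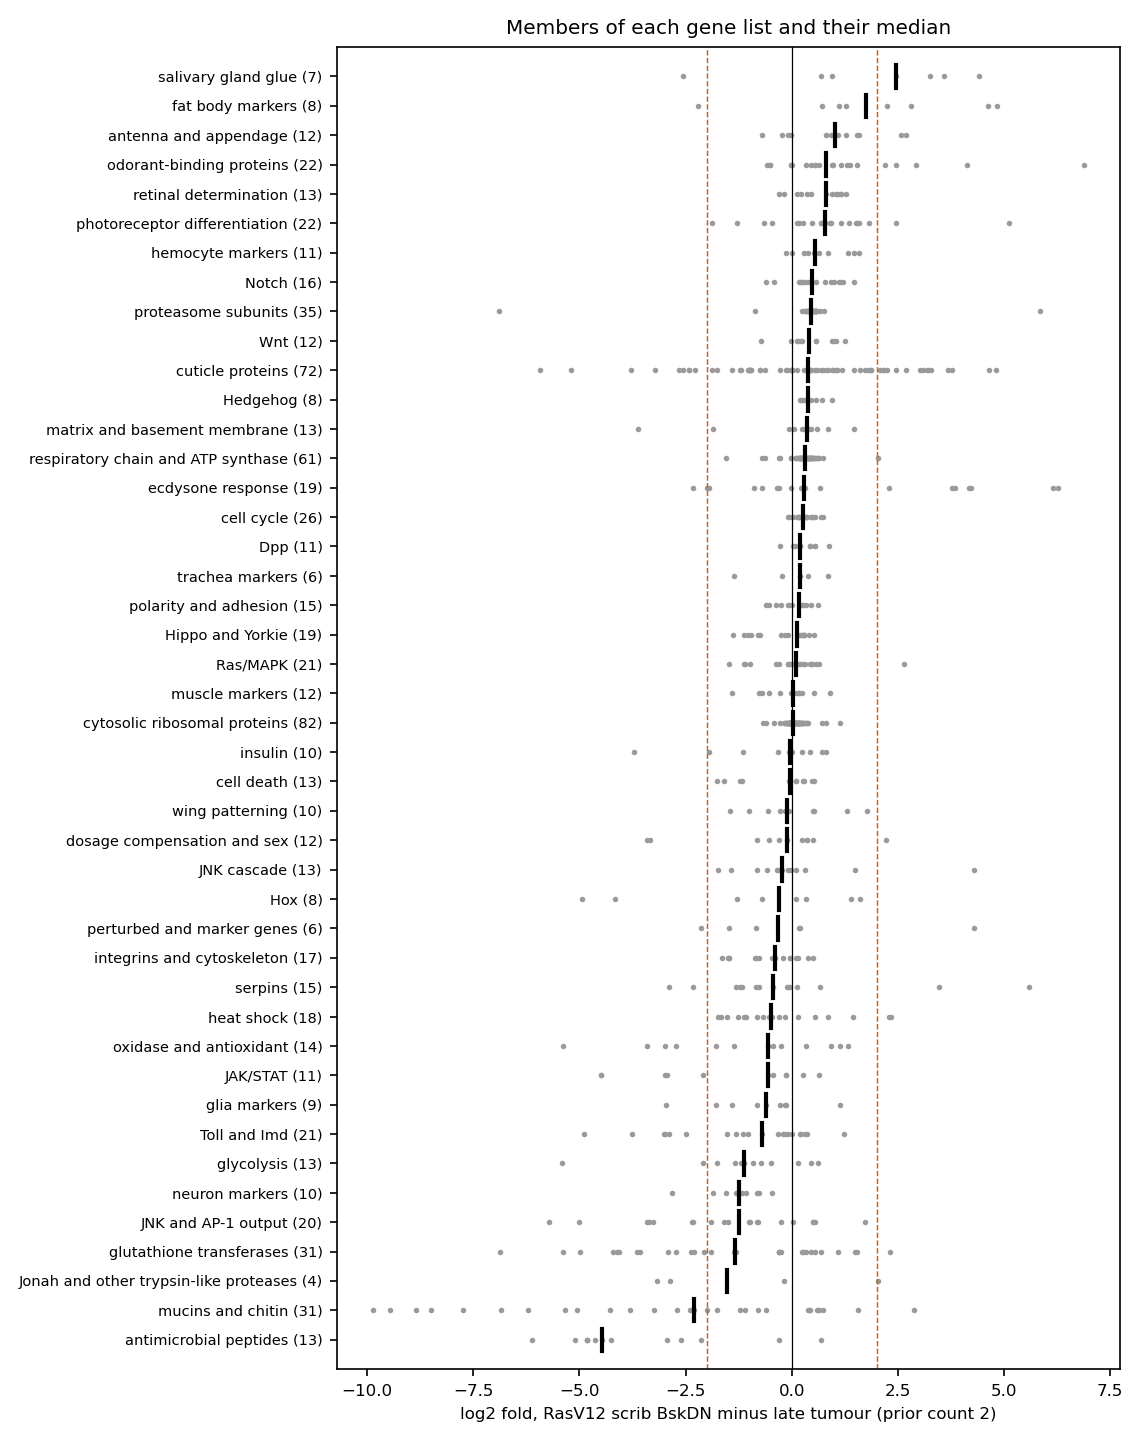
Log2 fold of RasV12 scrib BskDN minus late tumour (prior count 2) for each considered member of the gene lists with 4 or more such members, lists chosen after values were seen left out (grey points, number in brackets) with the list median (black bar), ordered by median, and dashed lines at 4-fold. Of the lists drawn, antimicrobial peptides and mucins have the lowest medians and salivary gland glue and fat body markers the highest, while ribosomal, cell cycle and polarity genes gather near 0.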

How the data were processed

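The authors deposited a single table of counts per gene, 1 column for each of the 8 libraries, with FlyBase identifiers. The aligner TopHat2 and the read counter HTSeq are named per the submitters' processing notes. Versions, genome build, annotation and strand setting: not given in the sources used here. Overlapping and antisense genes are therefore uncertain. Its 5 tally rows were left out: reads in no gene made up 6.16% of counted and tallied reads in RasV12 scrib BskDN and 4.81% in the late tumour, reads fitting more than 1 gene 1.55% in RasV12 scrib BskDN and 1.46% in the late tumour, and reads aligned to several places are given in the closing section. No column was left unused.

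A BDGP6 annotation supplied gene names and coordinates through the identifiers. Of 15348 identifiers 14639 matched and 709 did not, which held 9.00% of the counts in RasV12 scrib BskDN and 9.15% in the late tumour. Of 472 hand-written list entries 437 matched, and the other 35 are not analysed here. No sequence was used. Scaling used TMM factors (trimmed means of M values) over all 8 libraries, from edgeR 4.0.16 under R 4.3.3. Folds of single genes are ratios of normalized CPM without a prior count, with exact conditional binomial (Clopper-Pearson) intervals, and levels have exact Poisson intervals, at 95%. Reads are not independent molecules, so that these intervals cover counting error alone. In RasV12 scrib BskDN 1 count was worth 0.0484 CPM and in the late tumour 0.0499 CPM. A fold against 0 counts was computed with 3 counts there. The calling step and the intervals were tested on simulated data.

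The members and the 45 gene lists were chosen with earlier results of these data known, and 7 further lists after values of this comparison were seen. Genes named are the perturbed and marker genes, the 15 called genes with the largest folds in each direction that reached 20 CPM and carry a symbol other than a CG or CR number, list members past 4-fold, and up to 4 further members per list, those with the largest folds. Named outside that rule, after their values were seen, were Col4a1, vkg, CycB, stg, EcR, usp, Eip74EF, Jra, egr, hep, grnd, Stat92E, Timp, Myc, ex, sty, aos, dia, rhea, Dgp-1, the genes of the further lists, and Glyp, Men, vir-1, Ance and regucalcin in the closing section. Alternatives were DESeq2 1.42.0 size factors, other scalings, a prior count of 0.5, no filter, 20 CPM in the higher library, and the interval bound at 4-fold.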

Additional observations from a re-analysis of the deposited data

Results flagged for a closer look

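Reads that aligned to several places lie outside the gene counts and enter no comparison above. They made up 23.1% of counted and tallied reads in RasV12 scrib BskDN and 27.8% in the late tumour (27.82% unrounded), each above the 21.1% of control. The late tumour had the highest share of the 8 libraries, which ranged from 14.8% in scrib BskDN upward. Genes with near-identical copies are undercounted to the extent of these reads, and what the reads come from was not tested.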

How the results depend on the processing

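Counts of called genes stayed within 1.5 times under 6 other settings. With DESeq2 size factors 156 genes were higher and 384 lower, with total counts alone 156 and 383, with TMM of the 2 libraries 160 and 371, with a prior count of 0.5 164 and 376, with no filter 160 and 371, and with the interval bound at 4-fold or more 130 and 289. Requiring 20 CPM in the higher library left 100 genes higher and 205 lower, since fewer genes can then be called. None of the 302 named genes changed sign with DESeq2 factors, total counts, TMM of the 2 libraries or a prior count of 0.5. Called genes outside that set were not checked singly. Scaling by DESeq2 factors or total counts lowered the log2 folds of the 302 named genes by at most 0.046 and moved 19 and 13 of them beyond their intervals. The median of muscle markers became -0.003 with DESeq2 factors (0.0426 as reported) and that of ribosomal proteins -0.0083, or -0.0041 with total counts. With no filter on low values the medians of the cuticle, Jonah and odorant-binding protein lists became 0, that of antimicrobial peptides -2.40 (-4.46 as reported), that of glutathione transferases -0.98 (-1.33) and that of the Turandot genes -0.01 (-2.36, from 1 considered gene), since genes near 0 counts on both sides then enter. No paired analysis was possible because each group had 1 library. The planned search for promoter motifs was not run, as no sequences were used. Nothing here measures the spread between larvae or batches. Genotype and age cannot be told apart, nor can sex, and genes near 3 counts have wide intervals.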

Other observations

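Several genes with high levels stood outside the groups above and were picked after their values were seen. vir-1, known as a JAK/STAT target in flies, was at 102 CPM in RasV12 scrib BskDN and 973 CPM in the late tumour, 9.53-fold lower (9.11 to 9.97), with 768 CPM in the early tumour, 797 CPM in the scrib wing discs and 89.4 CPM in control. The glycogen phosphorylase gene Glyp was at 107 CPM in RasV12 scrib BskDN and 556 CPM in the late tumour (5.20-fold lower), and the malic enzyme gene Men at 62.7 CPM in RasV12 scrib BskDN and 307 CPM in the late tumour (4.89-fold lower). On the other side, the peptidase gene Ance was at 2123 CPM in RasV12 scrib BskDN and 451 CPM in the late tumour (4.71-fold higher, 4.60 to 4.82), and regucalcin at 1020.0 CPM in RasV12 scrib BskDN and 169 CPM in the late tumour (6.05-fold higher). Largest folds named by rule also included lectin-28C (157 CPM in RasV12 scrib BskDN and 8.73 CPM in the late tumour), Spn100A (146 CPM in RasV12 scrib BskDN and 2.94 CPM in the late tumour), St2 (87.9 CPM in RasV12 scrib BskDN and 4.54 CPM in the late tumour) and Sid (57.4 CPM in RasV12 scrib BskDN and 2.99 CPM in the late tumour) on the higher side. On the lower side they included Jig (0.339 CPM in RasV12 scrib BskDN and 53.9 CPM in the late tumour), Ag5r (0.726 CPM in RasV12 scrib BskDN and 89.4 CPM in the late tumour), Kaz-m1 (1.21 CPM in RasV12 scrib BskDN and 98.9 CPM in the late tumour), Ugt37C2 (0.194 CPM in RasV12 scrib BskDN and 22.0 CPM in the late tumour) and Cda9 (0.0484 CPM in RasV12 scrib BskDN and 26.2 CPM in the late tumour). Jig was at 210.3 CPM in control, so that a high level was not a feature of the late tumour alone.

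Of 15 serpin genes considered 5 were at least 2-fold lower and 2 higher. Spn43Aa was called higher, at 145 CPM in RasV12 scrib BskDN and 12.9 CPM in the late tumour, as was Spn100A, and Spn47C was called lower, at 7.70 CPM in RasV12 scrib BskDN and 57.5 CPM in the late tumour. Of 8 Hox genes 2 were at least 2-fold higher, Scr (37.1 CPM in RasV12 scrib BskDN and 12.1 CPM in the late tumour) and lab (10.5 CPM in RasV12 scrib BskDN and 3.89 CPM in the late tumour), and 3 lower. Of 10 wing patterning genes 2 were higher, Doc1 and Doc2, and 2 lower. Of 10 insulin genes 3 were lower. Of 6 trachea markers 1 was lower, trh, at 3.63 CPM in RasV12 scrib BskDN and 9.48 CPM in the late tumour. The marker gene y was called lower, at 16.7 CPM in RasV12 scrib BskDN and 73.9 CPM in the late tumour, with 18.7 CPM in the early tumour, while w was at 171 CPM in RasV12 scrib BskDN and 152 CPM in the late tumour and e at 6.78 CPM in RasV12 scrib BskDN and 12.1 CPM in the late tumour. The Turandot gene TotA was at 1.45 CPM in RasV12 scrib BskDN and 7.88 CPM in the late tumour, and the protease gene Jon65Aiv at 2.66 CPM in RasV12 scrib BskDN and 19.95 CPM in the late tumour.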
